A study of Mus musculus with 2 samples.

Results

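The mitochondrial carrier genes of the SLC25 family, other than the phosphate carrier Slc25a3 and the ADP/ATP carriers Slc25a4 and Slc25a5, were read out gene by gene and transcript by transcript in mouse heart. They were chosen by symbol alone, as every annotated gene named Slc25a followed by a number, with those 3 abundant genes left out. The annotation holds 44 such genes. Reads were found for 36 of them, out of 15410 annotated genes with reads, and each of the 36 had at least 1 read in each library.

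SLC25 proteins sit in the inner mitochondrial membrane, with a few exceptions in the outer membrane or in peroxisomes, and each carries a small group of solutes between cytosol and matrix. In heart muscle they link the cytosol to fatty acid oxidation, to the malate-aspartate shuttle that passes reducing equivalents into mitochondria, to nucleotide and cofactor supply, and to iron and glutathione import. Paralogs with like solutes often differ in the tissues that make them.

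Heart tissue came from male B6CASTF1/J mice, an F1 hybrid of C57BL/6J and CAST/EiJ, aged 18 to 20 months; the animals are given no treatment or engineered allele in the labels. There was 1 group with 2 libraries, replicate 2 and replicate 1, each made from 2 µg of total RNA and sequenced as long-read RNA-seq. In it 1 read stands for 1 sequenced cDNA molecule, PCR copies included. The labels number the libraries as biological replicates, yet both carry the same donor identifier and the same description of pooled cDNA. How far their spread is biological therefore cannot be told from the labels. Replicate 2 held 1003999 mouse reads and replicate 1 held 688861. Levels are given as reads per 1000000 mouse reads (CPM), not divided by transcript length, and a count of 3 reads, taken as the detection floor, equals 2.99 CPM in replicate 2 against 4.36 CPM in replicate 1. The cardiomyocyte markers fixed for the tissue all had reads (8 of 8 genes, summing to 43512 CPM in replicate 2 against 40648 CPM in replicate 1), and the 5 skeletal muscle markers, Myh1, Myh2, Myh4, Actn3 and Mylpf, had 0 reads in both. All tests below compare these libraries with each other, with counting error only, and no comparison between conditions exists. Fibroblast markers (5 of 5 with reads) summed to 511 CPM in replicate 2 against 684 CPM in replicate 1, endothelial ones (4 of 4) to 156 and 131 CPM, and macrophage ones (4 of 4) to 86.7 and 102 CPM. Of 28 listed markers tested between the libraries, the cardiomyocyte genes Pln, Myl2 and Mb were higher in replicate 2. Another 6 were lower: Myh6 and Actc1 of cardiomyocytes, Col3a1 of fibroblasts, Hba-a1 of erythroid cells, and Car3 and Cfd of adipocytes. Over all genes tested, 1.36% were higher and 2.00% lower.

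Together the 36 genes had 1954 reads in replicate 2 against 1506 in replicate 1, or 1946 and 2186 CPM (mean 2066 ± 170 CPM, SD, n = 2 libraries). That was 0.195% of mouse reads in replicate 2 (95% Clopper-Pearson interval 0.186 to 0.203) and 0.219% in replicate 1 (0.208 to 0.230). For scale, the 3 genes left out summed to 27319 CPM in replicate 2 against 28412 CPM in replicate 1, so the 36 genes together had 7.12% of their reads in replicate 2 and 7.69% in replicate 1. The family was uneven: Slc25a11 alone held 45.9% of the members' reads in replicate 2 and 43.6% in replicate 1, and the 5 genes with the highest mean (Slc25a11, Slc25a12, Slc25a39, Slc25a13 and Slc25a20) held 70.1% and 71.4%. Above a mean of 100 CPM were 3 genes, 6 lay between 50 and 100 CPM, 17 between 10 and 50 CPM and 10 below 10 CPM. The median member had a mean of 17.4 CPM, against 8.38 CPM for all annotated genes with reads.

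**Figure D1:**
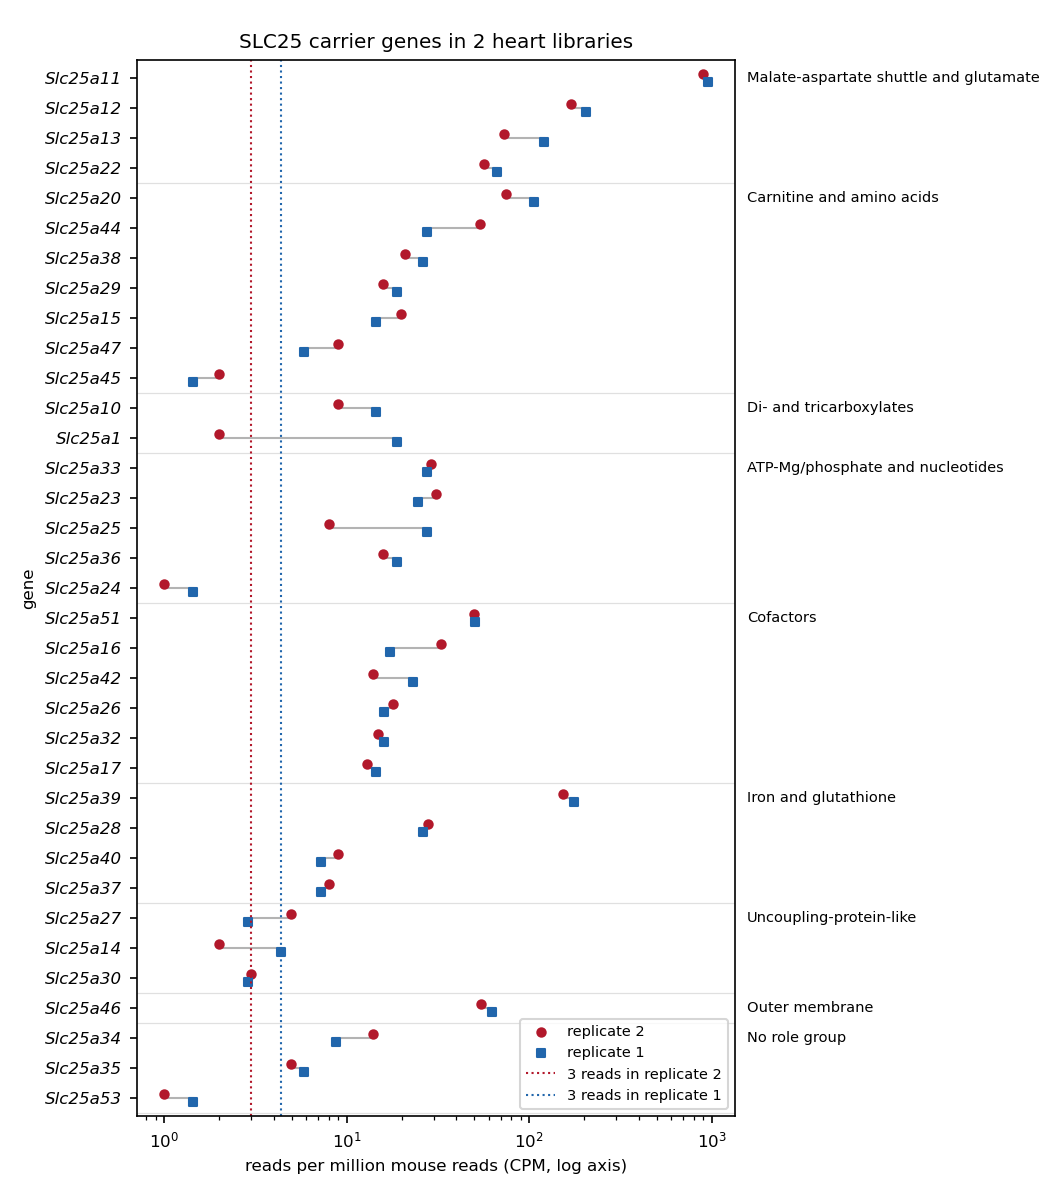
Level of the SLC25 genes with reads (all of the 36 but 1), in CPM on a log axis, by role group; red circles are replicate 2, blue squares replicate 1, and dotted lines mark 3 reads in each library. Slc25a11 stands alone at the top, at 893 CPM in replicate 2 against 952 CPM in replicate 1, and the widest gap between the libraries is that of Slc25a1, at 1.99 CPM in replicate 2 against 18.9 CPM in replicate 1.

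No read was assigned to 8 annotated genes, Slc25a2, Slc25a18, Slc25a21, Slc25a31, Slc25a41, Slc25a43, Slc25a48 and Slc25a54. At this depth a count of 0 allows up to 2.99 CPM in replicate 2 against 4.36 CPM in replicate 1. Several of these are paralogs of genes that were read: Slc25a18 is the second glutamate carrier beside Slc25a22, Slc25a2 the second ornithine carrier beside Slc25a15, and Slc25a31 the ADP/ATP carrier known from the germ line. Another 7 genes had reads, but under 10 in both libraries together: Slc25a14 had 2 reads in replicate 2 against 3 in replicate 1, Slc25a24 had 1 and 1, Slc25a27 had 5 and 2, Slc25a30 had 3 and 2, Slc25a35 had 5 and 4, Slc25a45 had 2 and 1, and Slc25a53 had 1 and 1. Slc25a14, Slc25a27 and Slc25a30 are the uncoupling-protein-like carriers, and their group as a whole summed to 9.96 CPM in replicate 2 against 10.2 CPM in replicate 1.

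The malate-aspartate shuttle and glutamate group held most of the reads. Of its 5 genes 4 were read, and they summed to 1192 CPM in replicate 2 against 1346 CPM in replicate 1, which was 61.3% and 61.6% of all member reads. Slc25a11 (ENSMUSG00000014606.14, chr11:70644196-70647479, minus strand, mm10), the oxoglutarate carrier that exchanges malate for 2-oxoglutarate, had 897 reads in replicate 2 against 656 in replicate 1, or 893 and 952 CPM (mean 923 ± 41.6, SD, n = 2). It ranked 160 among all annotated genes by mean CPM, and its top transcript is short, at 1711 nt over 8 exons. The aspartate/glutamate exchangers, which are regulated by calcium from the outer face of the membrane, followed at lower levels. Slc25a12, called aralar (ENSMUSG00000027010.16, chr2:71271063-71367749, minus strand), had 170 reads in replicate 2 against 142 in replicate 1 (169 and 206 CPM), on a main transcript with an annotated length of 6351 nt. Slc25a13, called citrin (ENSMUSG00000015112.15, chr6:6041218-6217173, minus strand), had 73 reads in replicate 2 against 83 in replicate 1 (72.7 and 120 CPM). Slc25a12 was above Slc25a13 in both libraries, and the Slc25a12 values (169 to 206 CPM) did not overlap those of Slc25a13 (72.7 to 120 CPM). The glutamate carrier Slc25a22 (ENSMUSG00000019082.18, chr7:141429744-141437892, minus strand) had 57 reads in replicate 2 against 46 in replicate 1 (56.8 and 66.8 CPM).

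Most citrin reads used a splice acceptor that the annotation does not hold. In Slc25a13 the intron between exons 9 and 10 ended 3 nt inside annotated exon 10 (intron chr6:6110022-6113937) in 51 of 69 reads in replicate 2, or 73.9% (61.9 to 83.7), and in 57 of 79 reads in replicate 1, or 72.2% (60.9 to 81.7). The annotated acceptor (intron chr6:6110025-6113937) had the other 18 reads in replicate 2 against 22 in replicate 1. The interval of the new acceptor's share lies above 50% in both libraries. The site is coding: it follows 933 coding bases of a 2028-nt reading frame, at codon phase 0, so the shorter form lacks 1 whole codon, CAG, and keeps the frame. The sequences of the joined exons are shown because the difference is only 3 bases; 24 bases of exon 9 are followed by the start of exon 10 as far as base 24 of the annotated exon, in lower case, with the bases that the new acceptor drops in capitals. They were taken from the GENCODE M21 transcripts, which carry the reference genome's bases.
Slc25a13 annotated acceptor: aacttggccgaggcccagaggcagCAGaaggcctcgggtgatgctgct
Slc25a13 new acceptor: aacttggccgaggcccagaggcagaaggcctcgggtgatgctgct
Slc25a12: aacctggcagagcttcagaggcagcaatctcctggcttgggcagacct
Exon 9 itself ends in cag, so the mRNA has CAG in tandem in the annotated form and once in the other, and the base string alone cannot say which copy is missing. The reads were not assigned to the parental alleles of the F1 hybrid. The paralog Slc25a12 was the comparison at hand, since both genes have 18 exons in their main transcript, 15 of them of equal length, and exon 10 is 82 nt in Slc25a12 and 88 nt in Slc25a13. At that junction Slc25a12 had 135 reads in replicate 2 against 120 in replicate 1 on the annotated acceptor and 0 on any other, which allows a share of up to 2.22% and 2.50%.

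With that acceptor included, the leading Slc25a13 model was a new one: a full-length chain of 18 exons and 3064 nt with the new acceptor held 42 of 73 reads in replicate 2 (57.5%, 45.4 to 69.0) and 45 of 83 in replicate 1 (54.2%, 42.9 to 65.2). The annotated transcript with the same exons, 3067 nt long, had 13 reads in replicate 2 against 20 in replicate 1. A count of known transcripts alone would thus have kept 17.8% of citrin reads in replicate 2 and 24.1% in replicate 1.

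Slc25a22 was read mostly from its inner first exon. Among reads spliced into exon 2, the inner first exon (intron chr7:141434330-141435287) was used by 26 of 37 in replicate 2, or 70.3% (53.0 to 84.1), and by 23 of 30 in replicate 1, or 76.7% (57.7 to 90.1). The outer first exon, that of the annotated 10-exon transcript (intron chr7:141434330-141437568), was used by 5 of 37 reads in replicate 2, or 13.5% (4.54 to 28.8), and by 4 of 30 in replicate 1, or 13.3% (3.76 to 30.7). Another 5 donors shared 6 reads in replicate 2 against 3 in replicate 1. The donors of the outer and inner first exons lie 2281 nt apart, and both exons are annotated. The leading model starts at the inner one, has 10 exons and 2519 to 2536 nt, and is classed by the authors' files as a new combination of annotated splice sites; each of its introns is annotated, but not this chain of them. It had 23 of 57 reads in replicate 2 and 15 of 46 in replicate 1. RefSeq gives a start site near the outer and the inner first exon, and another at chr7:141434594. The 5 other donors lie downstream of that one, at chr7:141434408 to 141434540, and its promoter window (chr7:141434545-141434844) is not printed. The windows of the outer and inner first exons are shown, the outer one at chr7:141437825-141438124 and the inner one at chr7:141435326-141435625. They run from 250 bases before the RefSeq start site to 50 after it on the minus strand (GRCm38.p6), with the transcribed bases in capitals.
outer first exon: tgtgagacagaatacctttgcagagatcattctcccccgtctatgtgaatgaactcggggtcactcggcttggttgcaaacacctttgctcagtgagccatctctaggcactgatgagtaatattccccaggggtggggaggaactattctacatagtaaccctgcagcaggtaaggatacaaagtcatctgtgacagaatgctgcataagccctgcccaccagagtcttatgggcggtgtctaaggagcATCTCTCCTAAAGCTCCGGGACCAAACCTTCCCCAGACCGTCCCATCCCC
inner first exon: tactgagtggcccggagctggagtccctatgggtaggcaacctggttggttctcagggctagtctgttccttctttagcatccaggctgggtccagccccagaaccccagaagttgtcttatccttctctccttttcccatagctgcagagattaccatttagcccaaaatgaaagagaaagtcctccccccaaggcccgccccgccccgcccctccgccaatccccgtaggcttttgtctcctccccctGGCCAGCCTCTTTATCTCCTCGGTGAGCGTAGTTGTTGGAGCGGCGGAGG
The inner window had 10 CpG dinucleotides and 58.0% G or C, against 6 CpG and 51.7% in the outer one; the median over 21262 windows of coding genes was 13 CpG.

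A coding exon of Slc25a22 was often skipped. Exon 3 (chr7:141433900-141434025), 126 nt or 42 codons long and entirely coding, was absent from 7 of 42 reads into exon 4 in replicate 2, or 16.7% (6.97 to 31.4), and from 10 of 31 in replicate 1, or 32.3% (16.7 to 51.4). The intervals overlap, and the skipping junction joins annotated sites in a pair that the annotation lacks. The exon begins after 20 coding bases, so the skipped form keeps the start codon and the frame but lacks 42 codons in length. The sequences below run from the start codon in exon 2 through base 24 of exon 4, with exon 3 in capitals.
exon 3 included: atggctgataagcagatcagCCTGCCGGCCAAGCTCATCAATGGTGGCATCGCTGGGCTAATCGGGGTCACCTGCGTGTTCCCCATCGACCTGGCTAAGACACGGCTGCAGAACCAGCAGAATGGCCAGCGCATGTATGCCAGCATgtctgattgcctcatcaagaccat
exon 3 skipped: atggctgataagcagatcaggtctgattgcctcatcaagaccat
A new 9-exon model with the inner first exon and without exon 3 had 3 reads in replicate 2 against 7 in replicate 1. A further 4 reads in replicate 2 against 9 in replicate 1 were on an annotated single-exon RNA of 5590 nt.

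Carnitine and amino acid carriers, 7 of 9 with reads, summed to 196 CPM in replicate 2 against 200 CPM in replicate 1. Slc25a20 (ENSMUSG00000032602.6, chr9:108662088-108684641, plus strand), the carnitine-acylcarnitine translocase that brings long-chain acyl groups to fatty acid oxidation, had 75 reads in replicate 2 against 73 in replicate 1 (74.7 and 106 CPM). Below it were Slc25a38, the glycine carrier used in heme synthesis, with 21 reads in replicate 2 against 18 in replicate 1, Slc25a29, a carrier of basic amino acids, with 16 and 13, and Slc25a15, the ornithine carrier of the urea cycle, with 20 and 10. Slc25a44, a carrier of branched-chain amino acids, had 54 reads in replicate 2 against 19 in replicate 1 (53.8 and 27.6 CPM), but most of these were not spliced: 41 reads in replicate 2 against 12 in replicate 1 were on a single-exon model that the authors' files list with a length of 2 nt at the gene's 3′ end (chr3:88410498-88410499). Its spliced reads numbered 13 in replicate 2 and 7 in replicate 1.

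Slc25a15 was read in part with a new donor of its first exon, and Slc25a47 in part from first exons upstream of its main coding transcript. In Slc25a15, reads into exon 2 came from the new donor (intron chr8:22395828-22397957) in 6 of 17 cases in replicate 2 (35.3%, 14.2 to 61.7) and 3 of 8 in replicate 1 (37.5%, 8.52 to 75.5). The annotated donor had 10 and 5. The new donor lies 482 nt past the annotated one. The model that uses it begins at chr8:22398544, inside the annotated first exon, so the first exon of this model extends the annotated one. RefSeq also gives a start site at chr8:22398277, between the annotated and the new donor. Where the single reads begin was not seen. Slc25a47, a carrier described in liver, had 9 reads in replicate 2 against 4 in replicate 1, and 8 of the 9 and 3 of the 4 belonged to models that begin upstream of the main coding transcript, whose start lies 15083 nt after the start of the gene. All 3 annotated transcripts that begin there are noncoding. Slc25a47 and Slc25a29 stand head to head on chromosome 12 with 162 nt between their annotated ends, and Slc25a29 had 16 reads in replicate 2 against 13 in replicate 1.

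Di- and tricarboxylate carriers were low, at 11.0 CPM in replicate 2 against 33.4 CPM in replicate 1 for Slc25a1 and Slc25a10 together. Slc25a10, the dicarboxylate carrier, had 9 reads in replicate 2 against 10 in replicate 1. Slc25a1 (ENSMUSG00000003528.15, chr16:17925223-17928219, minus strand), the citrate carrier that exports citrate for fatty acid synthesis, had 2 reads in replicate 2 against 13 in replicate 1 (1.99 and 18.9 CPM). It is the single member that passed the test between the libraries, with the limits given below.

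ATP-Mg/phosphate and nucleotide carriers summed to 84.7 CPM in replicate 2 against 100 CPM in replicate 1, with 5 of 8 genes read. Slc25a23 had 31 reads in replicate 2 against 17 in replicate 1, Slc25a33, a pyrimidine nucleotide carrier, had 29 and 19, Slc25a36, its paralog, had 16 and 13, and Slc25a25 had 8 and 19. Slc25a23, Slc25a24 and Slc25a25 are calcium-binding ATP-Mg/phosphate exchangers; Slc25a24 had 1 read in each library, below the floor. Slc25a25 was read from both of its main annotated starts: of its reads into the shared exon, 4 of 7 in replicate 2 and 10 of 16 in replicate 1 came from the nearer first exon, and 3 and 5 from a farther one, across an intron of 29467 nt.

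Most spliced Slc25a23 reads ended before the annotated last coding exon. Slc25a23 (ENSMUSG00000046329.14, chr17:57043711-57059863, minus strand) has 10 exons in its full annotated transcript, and the last holds 182 coding bases. Of its spliced reads, 22 of 24 in replicate 2, or 91.7% (73.0 to 99.0), and 13 of 15 in replicate 1, or 86.7% (59.5 to 98.3), were on models that stop in the last intron at chr17:57047051, 135 bases past exon 9, and 1 spliced read in each library reached the last exon. That position is the annotated 3′ end of a 4-exon transcript that is annotated only from the middle of the gene onward, in which the reading frame runs 65 bases past exon 9 and then stops. The leading model joined this end to the full set of upstream exons: it had 9 exons, 1500 nt and 18 reads in replicate 2 against 11 in replicate 1, and the files class it as an incomplete match to the 10-exon transcript. The 10-exon transcript itself had 1 read in each library. Single-exon reads within the last exon numbered 6 in replicate 2 and 1 in replicate 1.

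**Figure D2:**
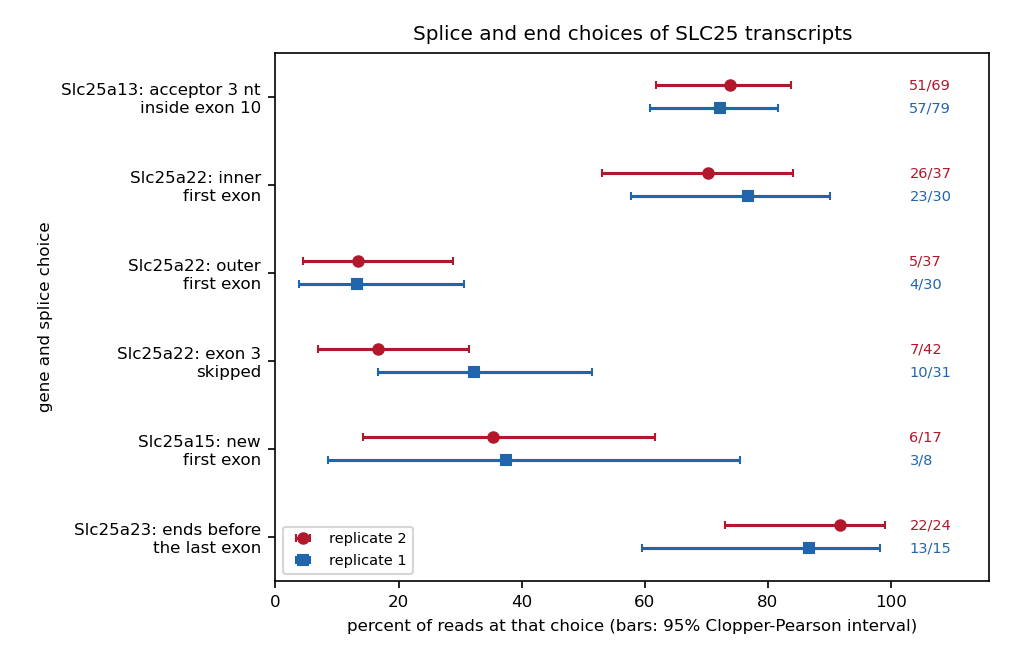
Share of reads at each named splice or end choice, in percent, with 95% Clopper-Pearson intervals; red circles are replicate 2, blue squares replicate 1, and the counts stand at the right. Each pair of intervals overlaps, from the Slc25a13 acceptor (73.9% in replicate 2 and 72.2% in replicate 1) to the Slc25a23 reads that end before the last exon (91.7% and 86.7%). The Slc25a15 choice, labelled new first exon, is the new donor of its first exon.

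Cofactor carriers were all detected, 7 of 7, at 179 CPM in replicate 2 against 202 CPM in replicate 1. Slc25a51, the NAD carrier of the inner membrane, had 50 reads in replicate 2 against 35 in replicate 1 (49.8 and 50.8 CPM), nearly equal levels. Slc25a16 had 33 reads in replicate 2 against 12 in replicate 1, Slc25a42, a coenzyme A carrier, had 14 and 16 (4 of the 16 on a single-exon model listed at 1 nt), Slc25a32, the folate and FAD carrier, had 15 and 11, and Slc25a17, the peroxisomal member, had 13 and 10. Slc25a26, which imports S-adenosylmethionine, had 18 reads in replicate 2 against 11 in replicate 1, mostly partial: its last intron was crossed by 14 reads in replicate 2 against 9 in replicate 1, its first by 5 and 1, and the leading model, with 7 reads in each library, covered the last 4 exons only.

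The iron and glutathione group, also complete with 4 of 4 genes, summed to 198 CPM in replicate 2 against 216 CPM in replicate 1. Slc25a39 (ENSMUSG00000018677.9, chr11:102402985-102407946, minus strand), the glutathione carrier, supplied most of it with 154 reads in replicate 2 against 121 in replicate 1 (153 and 176 CPM); its paralog Slc25a40 had 9 and 5 reads. Of the mitoferrins, which import iron, Slc25a28 (mitoferrin 2) had 28 reads in replicate 2 against 18 in replicate 1, and Slc25a37 (mitoferrin 1) had 8 and 5. Slc25a28 was thus above Slc25a37 in both libraries, at 27.9 and 26.1 CPM against 7.97 and 7.26 CPM. Most Slc25a37 reads were unspliced: 5 of 8 in replicate 2 and 3 of 5 in replicate 1 were on single-exon models. For Slc25a28 these were 3 of 28 and 4 of 18. Erythroid cells also use this group, and 5 of 6 erythroid markers had reads, summing to 6996 CPM in replicate 2 against 7684 CPM in replicate 1 with Slc4a1 at 0; the part of blood in these levels was not tested. Here as elsewhere in bulk tissue, fewer cells of a type and less RNA per cell cannot be told apart.

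Outside these groups, Slc25a46, an outer membrane member involved in mitochondrial dynamics, had 55 reads in replicate 2 against 43 in replicate 1 (54.8 and 62.4 CPM). Its annotated transcript held 69.1% of reads in replicate 2 and 76.7% in replicate 1, and 1 new exon-skipping junction had 4 reads in replicate 2 against 2 in replicate 1. Slc25a34 had 14 reads in replicate 2 against 6 in replicate 1, of which 7 and 4 were unspliced.

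Between the libraries, 1 of the 29 members tested (10 or more reads over both libraries) passed the exact two-sided binomial test, Benjamini-Hochberg adjusted over 8836 annotated genes at a threshold of 0.05; 3.36% of all genes tested passed it. That gene, Slc25a1, was lower in replicate 2, and 2.00% of all genes passed in that direction against 1.36% in the other. Over all genes 120 were higher and 177 lower in replicate 2; with TMM or DESeq2 size factors 193 of 288 were higher, and Slc25a1 was still the member called. Its ratio of replicate 2 over replicate 1 was 0.106 (95% counting interval 0.0116 to 0.466), and its log2 ratio with 1 CPM added was -2.73 (adjusted p = 0.0136, exact binomial test). With 15 reads in all, the call was lost over known transcripts alone, over spliced models alone, with replicate 2 thinned to equal depth and with the edgeR exact test (adjusted p = 0.0777, 0.0870, 0.0595 and 0.239, exact tests), where the log2 ratio was -2.58, -2.52, -3.02 and -2.73; the thinning was 1 random draw. The adipocyte markers moved with it: 6 of 7 had reads, Lep was at 0, their sum was 44.8 CPM in replicate 2 against 267 CPM in replicate 1, and 2 of the 3 tested, Car3 and Cfd, were lower in replicate 2 by the same test. Their part in the Slc25a1 difference was not tested.

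The members' median log2 ratio was -0.15, with 11 above 0 and 18 below, beside a median of -0.06 over all genes tested; with TMM these were -0.06 and 0.03, with 13 members above 0 and 16 below. An unadjusted p under 0.05 was found for 6 of 29 members (20.7%), beside 1061 of all 8836 genes (12.0%). Just short of the threshold were Slc25a13, with a log2 ratio of -0.72 (adjusted p = 0.0536, exact binomial test), and Slc25a25, with -1.67 (adjusted p = 0.0682, exact binomial test). Slc25a44 had the largest positive log2 ratio among members tested, 0.94 (adjusted p = 0.195, exact binomial test), which rested on the 2-nt model: over spliced models it was 0.39, and over known transcripts -0.11. Of the 29 members, 27 were within 2-fold between the libraries (93.1%, beside 91.8% of all genes).

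**Figure D3:**
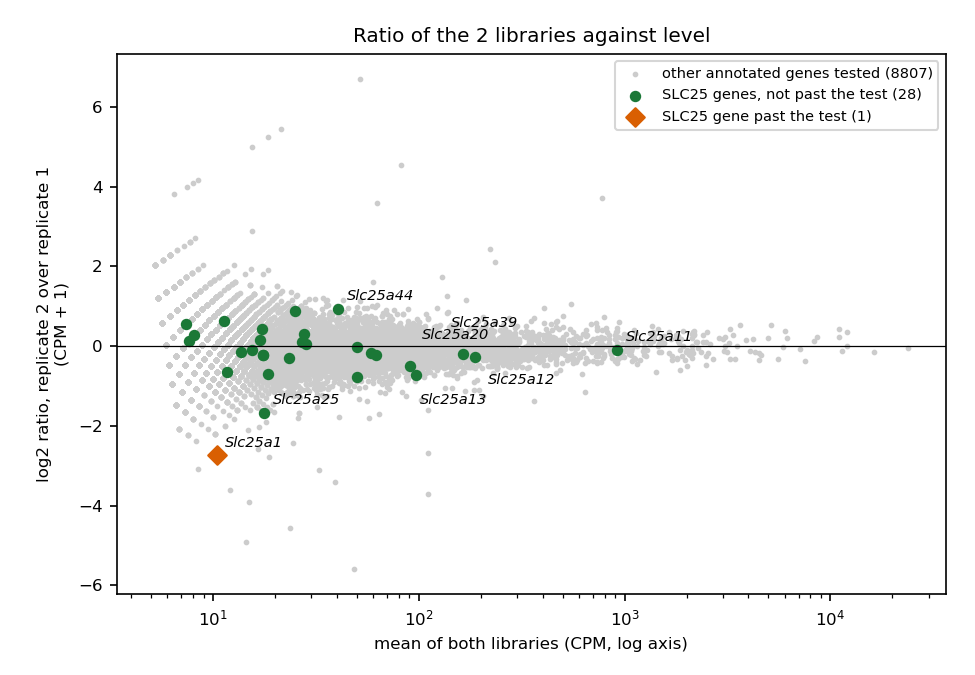
Log2 ratio of replicate 2 over replicate 1 (CPM + 1) against the mean of both libraries (CPM, log axis) for annotated genes with at least 10 reads. Grey points are other genes, green points the SLC25 genes that did not pass the test and the orange diamond Slc25a1, which did, at -2.73; Slc25a11 lies at -0.09.

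Partner genes of the same pathways gave the scale around the carriers. Of 30 listed, all had reads and 28 were tested; 0 were higher and 3 were lower in replicate 2, beside 1.36% higher and 2.00% lower over all genes. The lower ones were Alas1, the entry enzyme of heme synthesis (473 CPM in replicate 2 and 772 in replicate 1; adjusted p = 2.44e-12, exact binomial test), and the cytosolic shuttle enzymes Got1 (614 and 788 CPM; adjusted p = 0.00137, exact binomial test) and Mdh1 (2015 and 2265 CPM; adjusted p = 0.0204, exact binomial test). These calls were not recomputed with another scaling. The 4 malate-aspartate enzymes summed to 4879 CPM in replicate 2 against 5505 CPM in replicate 1, and 0 of the 4 carriers of the shuttle and glutamate group passed the test. In the carnitine system, Crat (749 and 721 CPM), Cpt2 (428 and 420 CPM) and Cpt1b (410 and 444 CPM) were above Slc25a20 (74.7 and 106 CPM), and Slc22a5 (33.9 and 26.1 CPM) and Cpt1a (12.0 and 8.71 CPM) below it, on the per-read scale. The pyruvate carrier, which is not an SLC25 protein, had 644 CPM of Mpc1 and 716 CPM of Mpc2 in replicate 2 and 557 and 591 CPM in replicate 1. Among family members that carry other symbols, Mtch1 had 330 CPM in replicate 2 and 359 in replicate 1, Mtch2 had 174 and 195, Ucp2 had 43.8 and 56.6, Ucp3 had 17.9 and 7.26, and Ucp1, the uncoupling protein of brown fat, had 0 reads and 1 read.

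Reads on transcripts that match the annotation in full made up 77.3% of member reads in replicate 2 (75.4 to 79.1) and 79.2% in replicate 1 (77.1 to 81.2), beside 72.4% and 74.8% for the other annotated genes. Slc25a11 weighs on this, with 93.4% in replicate 2 and 93.8% in replicate 1; without it the members' share was 63.6% (60.6 to 66.5) and 68.0% (64.7 to 71.1). Incomplete matches, which follow an annotated chain of introns without all of it, were 5.89% of member reads in replicate 2 and 7.24% in replicate 1, beside 14.9% and 12.6% for the other genes. New combinations of annotated splice sites were 4.30% and 3.92% (other genes 3.66% and 3.95%), and models with a new splice site 4.81% and 5.71% (other genes 2.69% and 2.84%). Slc25a13 weighs on the last share, with 46 of the members' 94 reads on such models in replicate 2 and 47 of 86 in replicate 1. Models of the authors' genomic class, single-exon in the cases named here, were 7.73% in replicate 2 and 3.92% in replicate 1, beside 6.38% and 5.82%. These differences from other genes were not tested.

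**Figure D4:**
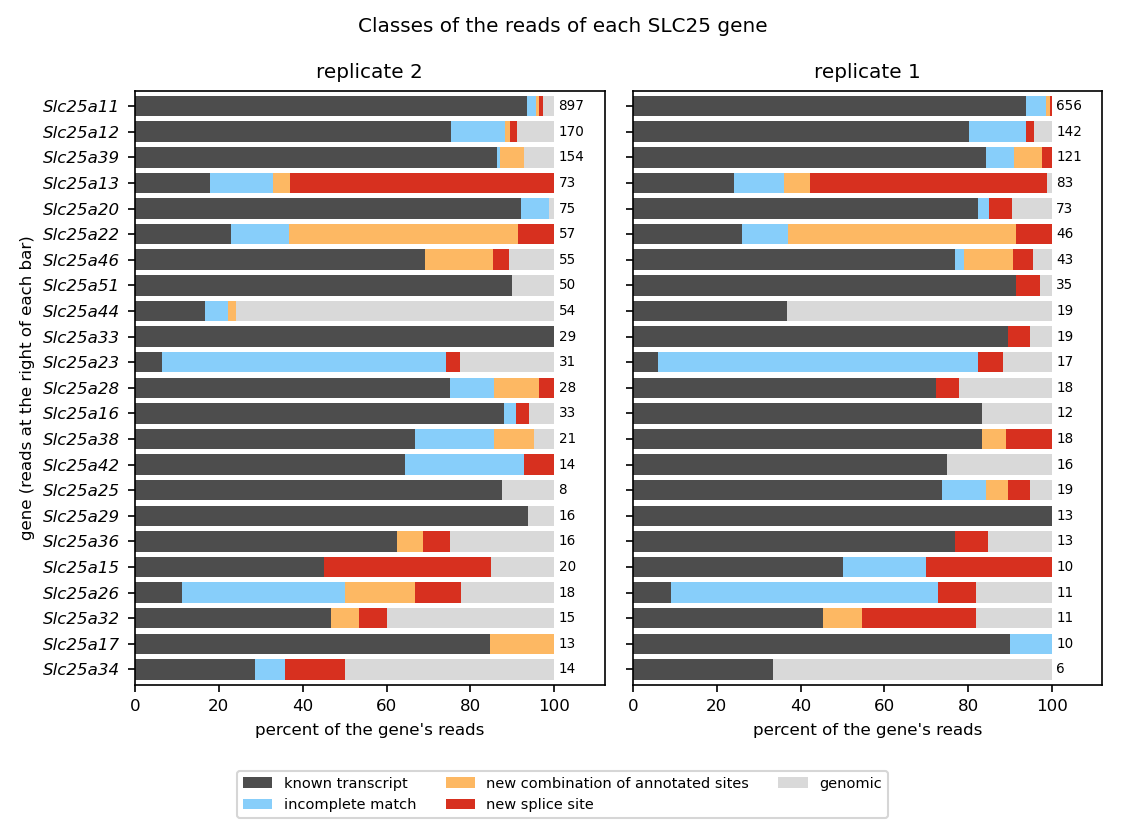
Percent of each gene's reads by model class, replicate 2 in the left panel and replicate 1 in the right, for the SLC25 genes with 20 or more reads over both libraries (1 not drawn); the number of reads is at the right of each bar. Slc25a13 (new splice site), Slc25a22 (new combination), Slc25a23 (incomplete match) and Slc25a44 (genomic) depart from known transcripts in both libraries, while Slc25a11 is 93.4% and 93.8% known.

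Counted per junction, 99.0% of the members' junction reads in replicate 2 and 98.9% in replicate 1 were on annotated introns. Here a read counts once for each intron it crosses, so these shares cannot be set against the shares of reads above. Introns with a new acceptor had 78 reads in each library, of which the Slc25a13 site supplied 51 in replicate 2 and 57 in replicate 1. New spliced models, incomplete matches left out, numbered 128, but 94 of them had 1 read and 19 were found in both libraries; the 3 with at least 10 reads were those of Slc25a13 and Slc25a22 described above.

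The share of the top model did not differ detectably between the libraries in the members tested. It was compared by Fisher's exact test in 9 members with at least 20 reads in each library. Of these, 0 passed the adjusted threshold, beside 1.93% of 4087 genes tested, and 0 of the 9 had an unadjusted p under 0.05. At that rate over all genes, 0 calls among 9 would be usual, so the count does not set the members apart. Other splice choices, such as the skipped coding exon of Slc25a22, were not themselves compared by this test. The top model held 93.3% of Slc25a11 reads in replicate 2 and 93.8% in replicate 1, 75.3% and 80.3% for Slc25a12, 85.7% and 84.3% for Slc25a39, and 92.0% and 82.2% for Slc25a20, whose adjusted p was the lowest of the 9 at 0.788 by the exact test. Annotated transcripts led in 7 of the 9 genes and new models in 2, Slc25a13 and Slc25a22.

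The first and last introns of the main annotated transcript were counted separately, over spliced reads, for the 24 members with 20 or more reads. In Slc25a11, 846 of 873 spliced reads in replicate 2 and 620 of 640 in replicate 1 crossed the first of its 7 introns, and 870 and 639 crossed the last. Even for Slc25a12, with 17 introns, the first intron was crossed by 133 of 155 spliced reads in replicate 2 and 117 of 136 in replicate 1. The 6351 nt of its main transcript are the annotated length, not a read length. A new 18-exon model, with 2 reads in replicate 2 and 0 in replicate 1, was 2929 nt long with its 3′ end at chr2:71274267. In Slc25a22 and Slc25a25 a low count at the first intron goes with the other first exons given above. In Slc25a15 it goes with the new donor. The intron counted is that of the main annotated transcript only, and the remaining Slc25a22 reads were mostly on the inner first exon. In Slc25a26 the leading model holds the last 4 exons only. Slc25a44 had 7 reads across the first intron and 12 across the last in replicate 2, and 5 and 7 in replicate 1. At the last intron Slc25a23 was the lowest of the 24, with 1 read in each library. Slc25a32 had 9 spliced reads in each library, of which 7 in replicate 2 and 5 in replicate 1 crossed the last intron.

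**Figure D5:**
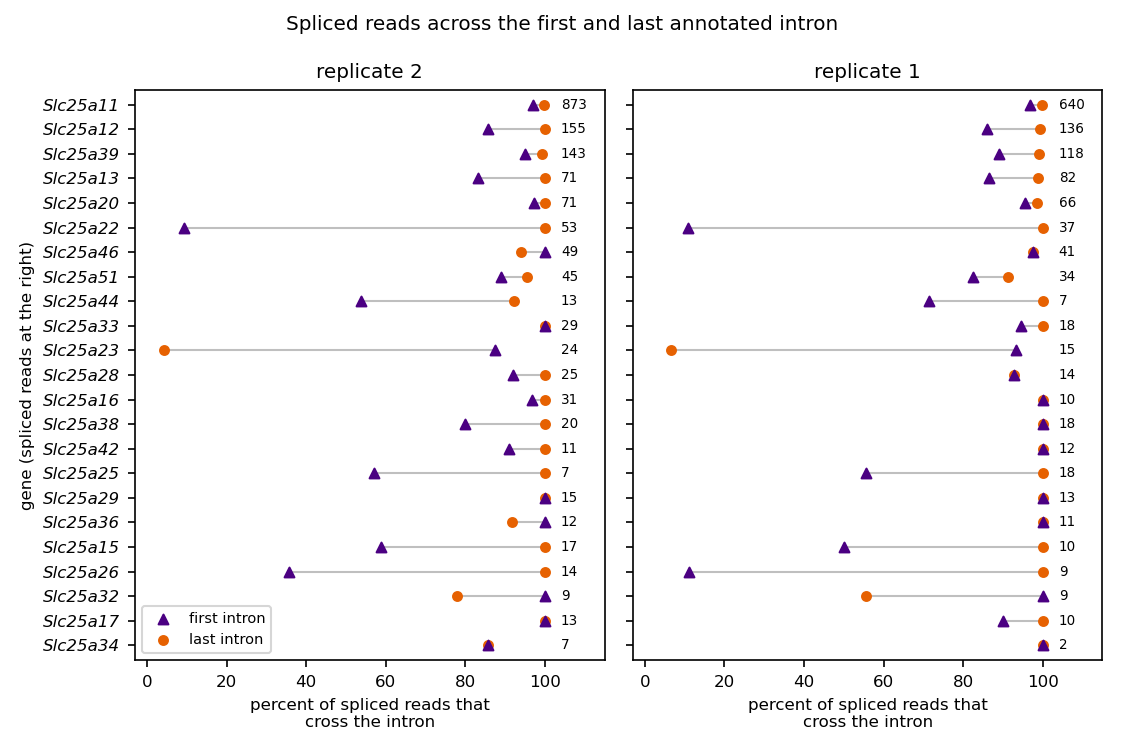
Percent of spliced reads that cross the first (triangles) and the last (circles) intron of the main annotated transcript, replicate 2 left and replicate 1 right, with the number of spliced reads at the right, for SLC25 genes with at least 20 reads (1 not drawn). Slc25a22 falls at the first intron (5 of 53 reads in replicate 2 and 4 of 37 in replicate 1) and Slc25a23 at the last (1 of 24 and 1 of 15).

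Few members lie next to each other. Within 10000 nt of another member were Slc25a29 and Slc25a47, head to head as described, and 2 pairs on a common strand in which 1 copy had no reads: Slc25a41, 2056 nt from Slc25a23, and Slc25a54, 6461 nt from Slc25a24. On the opposite strand Slc25a35 overlaps Rangrf (58 reads in replicate 2 against 44 in replicate 1). The 5 and 4 reads of Slc25a35 all crossed its own annotated introns, and 0 were on single-exon models. A part of Rangrf in them was not tested further. Slc25a18, which had 0 reads, overlaps Atp6v1e1 (144 and 97 reads). Slc25a11 overlaps Rnf167 (26 and 21 reads).

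RefSeq promoter windows of 300 bases were at hand for 33 of the 44 members. The ETS motif CCGGAAG, on either strand, was in 5 of them (15.2%, beside 12.9% of 17491 coding genes): Slc25a17, Slc25a20, Slc25a25, Slc25a38 and Slc25a54. The NRF1 motif was in 1, that of Slc25a31 (3.03%, beside 7.17%), and the ERR motif TCAAGGTCA in 0 (beside 0.377%). None of these letter strings was in the Slc25a22 windows printed above. These are matches of letters within the windows and describe no binding.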

How the data were processed

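The deposited tables hold read counts as whole numbers, 1 table per library and 1 line per transcript model, not normalized. Per the file headers and labels, coordinates are mm10, the experiment is long-read RNA-seq and models were named by TALON against GENCODE M21. Not given in the sources used here are the aligner, its filters and the tool versions. Known models carry annotated ends, so ends are read only to the nearest model.

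Counts were summed over all models of a gene; CPM was computed per 1000000 mouse reads, without spike-ins. Spliced models were matched between libraries by intron chain. With 1 group of 2 libraries, genes with 10 or more reads over both libraries were compared by a two-sided exact binomial test, with an expected share of 0.593 for replicate 2, and top-model shares by Fisher's exact test where each library had 20 or more reads, both with Benjamini-Hochberg adjustment (scipy 1.17.1). Both were tested on simulated data drawn with counting error only, which cannot show how they behave under further spread between libraries. edgeR 4.0.16 and DESeq2 1.42.0 supplied alternatives. PCR copies cannot be recognised, so intervals cover counting error only. Named were members with 100 or more reads over both libraries, members called by a test, and the most-read members of each role group; splice choices, Slc25a15, Slc25a25, Slc25a26, Slc25a44 and Slc25a47 were added after their values were seen. The members and gene lists were chosen with earlier results of these data known. Near-identical copies, searched with blastn 2.17.0 at 90% identity over 50% of the shorter transcript, had at most 1 read in a library, Rangrf aside. Protein sequences were not used here. For 1 member, values of its own are not reported here; it stays in the sums, counts and tests.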

Additional observations from a re-analysis of the deposited data

Results flagged for a closer look

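Reads on new models that lie opposite a member, which no comparison above uses, exceeded the detection floor of 3 reads in both libraries at 3 loci. Opposite Slc25a46 there were 28 reads in replicate 2 and 7 in replicate 1, opposite Slc25a20 there were 13 and 6, and opposite Slc25a37 there were 8 and 6. With the exception of 1 read at Slc25a46, all of them were on single-exon models. They were picked out because they appear in data outside the members' own counts, above the limit that a count of 0 allows.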

How the results depend on the processing

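No paired analysis was possible because there is 1 group. The member count passing the test was 1 (Slc25a1) with TMM, with DESeq2 size factors and with no minimum, 1 of 10 (Slc25a13, log2 ratio -0.72, adjusted p = 0.0270, exact binomial test) at a minimum of 50 reads, where Slc25a1 was not tested and 338 of 4032 genes (8.38%) passed, and 0 with known transcripts only, with replicate 2 thinned to the depth of replicate 1, with the edgeR exact test with a common dispersion, and over spliced models only, an alternative chosen after seeing the data; the cause was not tested. Where tested, Slc25a1 had adjusted p-values of 0.0236 to 0.239 over these alternatives, and 0.0136 as reported. The count over all genes was 297, and 25 with the edgeR exact test, which allows for a spread of 14.2% between libraries beyond counting error. TMM and DESeq2 size factors turned the split of calls from 120 higher and 177 lower to 193 higher of 288, and moved the median of all genes to 0.03. Reversals of log2 ratios were Slc25a11 at 0.00 with TMM and DESeq2 size factors, Slc25a22 at 0.04 over spliced models and Slc25a44 at -0.11 over known transcripts. Of 88 values recomputed for 9 genes, 79 kept direction and side of the threshold. The 88 include pseudocounts of 0.1 and 5 CPM, which can change neither the direction nor the adjusted p. The other minimums and the edgeR exact test leave the log2 ratio as it was. The 79 therefore do not measure stability. The summed level was 2285 CPM over known transcripts and 1946 to 2186 CPM leaving out a replicate; the share on known transcripts was 77.3% to 79.2%, and 36 members had reads in each library alone. Isoform calls among members were 0 under the 3 alternatives run. Members with under 10 reads over both libraries were not tested.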
